A study of Mus musculus with 36 samples.

Results

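Poly(I:C) is a laboratory-made double-stranded RNA that stands in for viral RNA, and the response to it was examined in fibroblasts heterozygous for the N129D knock-in allele of Tbk1. The members were chosen by sample title, as the het lines E1.3, then E2.5, then E2.6, then E2.8, each with 1 library given poly(I:C) for 4 h and 1 untreated library. Values for the 4 lines are given in that order throughout. These are 8 of the 36 libraries of the series, and they were compared within each line, 4 against 4. All cells were embryonic fibroblasts, mesenchymal cells grown out of mouse embryos. The het lines have the genotype N129D/wt, and beside them stand the WT lines E1.5, then E2.1, then E2.7 (wt/wt) and the hom lines E1.4, then E2.2, then E2.9 (N129D/N129D), again in that order, under the same treatments. A further treatment of every line, antimycin with oligomycin for 4 h, blocks mitochondrial respiration and ATP synthase. The sources used here do not state the poly(I:C) dose, its mode of delivery or the embryo or litter from which each line came. The p-values therefore speak for these lines only. They and the standard errors rest on a spread estimated over 30 libraries of 10 lines, not on the 4 het lines alone.

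Double-stranded RNA is sensed in endosomes by TLR3 and in the cytosol by RIG-I (Ddx58) and MDA5 (Ifih1). Through the adaptors TRIF (Ticam1) and MAVS, both routes reach the kinases TBK1 and IKK-epsilon, which phosphorylate the transcription factor IRF3, and the IKK complex, which releases NF-kB. IRF3 and NF-kB together switch on the interferon-beta gene, and the secreted interferon then acts through IFNAR and JAK kinases to induce the large set of interferon-stimulated genes.

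The 8 libraries held 5234667 to 9355752 counts each. Fibroblast markers summed to 11868 to 14914 CPM (counts scaled to library size, for marker sums the plain total) in all 8, and apart from smooth muscle, whose genes cultured fibroblasts also express (2162 to 3965 CPM), no list for another cell type reached more than 434 CPM. Line E2.6 stood apart: its 16 macrophage markers summed to 62.3 CPM untreated and 56.4 CPM treated against 5.51 to 12.2 CPM in the other lines, its 9 endothelial markers to 92.8 and 112 CPM against at most 43.7 CPM, and its Cdkn1a, a cell cycle inhibitor gene, stood at 192 CPM untreated against 47.4 to 56.4 CPM. Most of the untreated endothelial sum in E2.6 came from Flt1 (69.57 CPM) and Kdr (19.02 CPM), and Tek came next at 1.44 CPM. Most of the endothelial list was therefore close to absent in that library. Counts without E2.6 are given beside the results that it moved. The part of that line's macrophage and endothelial markers in these results was not tested. The lines also differed in Xist, a non-coding RNA of the X chromosome, at 900, 0, 0 and 9.08 CPM untreated. Its part in the results was not tested either.

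After 4 h, 1177 of 13364 tested genes (8.81%) had risen and 1199 (8.97%) had fallen in the het lines at an adjusted p under 0.05 by edgeR's quasi-likelihood test with the line as a block. Those shares are the background for the counts of each list below. The rises were larger: 320 exceeded 1 on the log2 scale, a doubling, against 103 of the falls. Of the 2376 genes called (17.8%), 2224 moved the same way in all 4 lines, and the median change of all genes was -0.01. Only 704 genes (5.27%) lay higher in every treated than in every untreated library and 866 (6.48%) lower in every one. With the pairing by line left out, 299 genes rose and 325 fell. The count called was 1169 without E1.3, 1238 without E2.5, 2413 without E2.6 and 1031 without E2.8. The plot of list medians shows where the changes lay, from interferons and Ifit genes at the top of the scale to long non-coding RNAs at its foot.

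**Figure D1:**
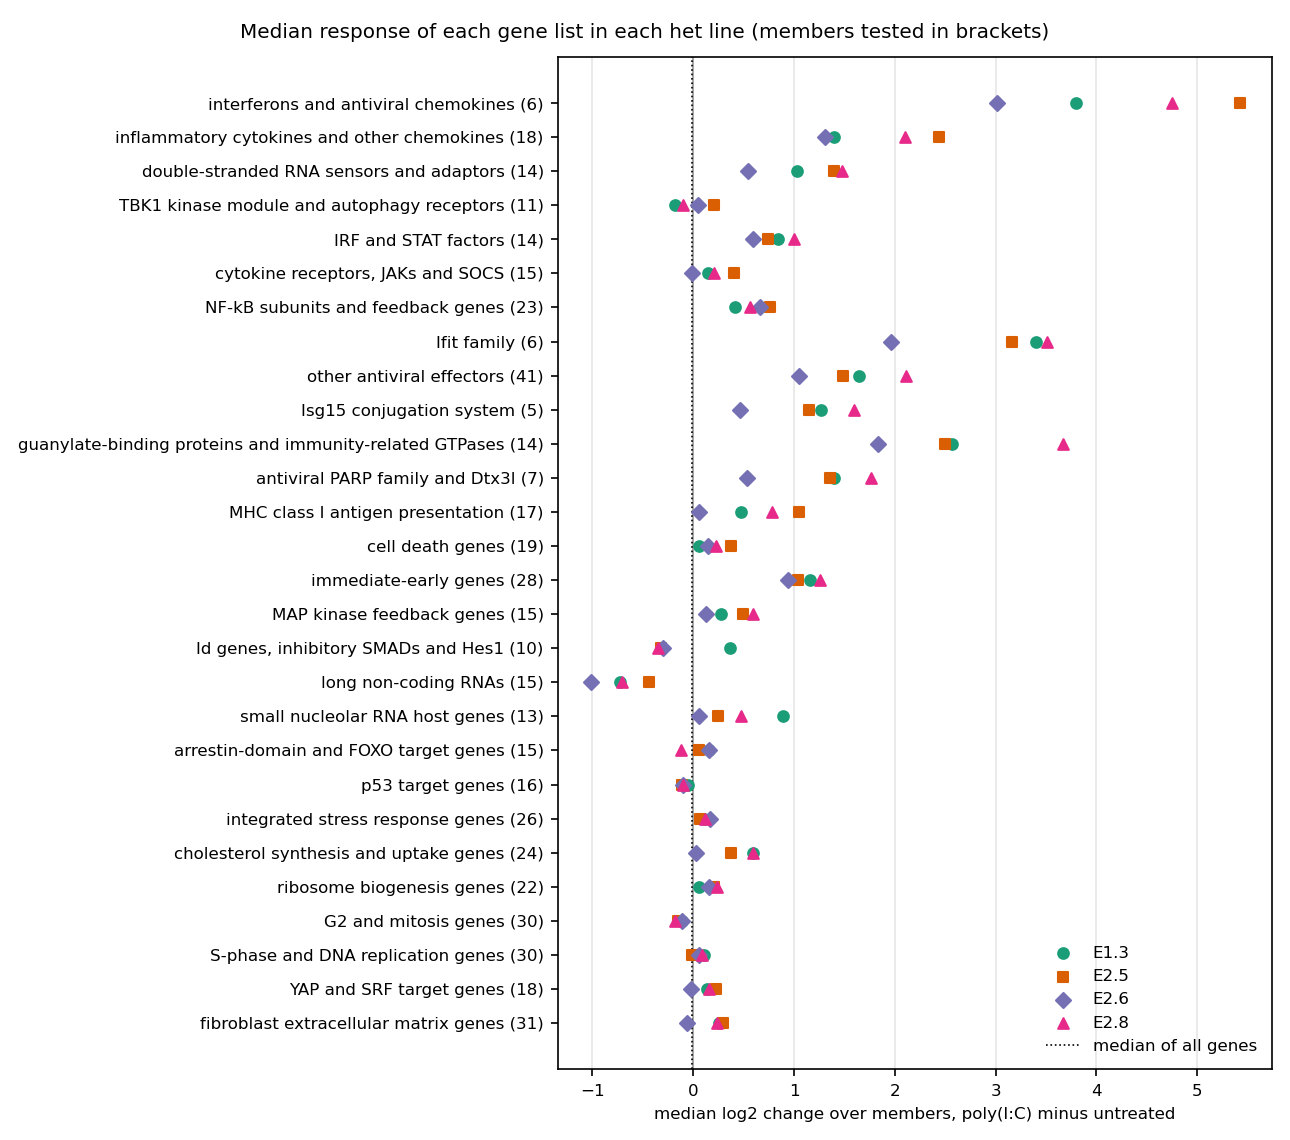
Median log2 change (poly(I:C) minus untreated) over the tested members of each of 28 gene lists, with 1 symbol per het line and the number of tested members in brackets. Interferons and antiviral chemokines moved most (3.01 to 5.42) and long non-coding RNAs were the lowest list in every line (-1.02 to -0.44), while E2.6 had the lowest value in each list from the Ifit family to MHC class I.

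The promoters of genes that carry the response are shown because they hold the sequence elements through which its factors are known to act. They are RefSeq windows on GRCm38.p6 running 5′ to 3′ on the gene's strand, from 250 bases before the annotated start to 50 after it. Capitals mark matches, on either strand, to GAAANNGAA (the core of interferon-stimulated response elements, bound by IRF and STAT factors), GGANNTTCC (the core of many NF-kB sites), TGANTCA (an AP-1 site, bound by Fos and Jun proteins) and TGACGTCA (a cAMP response element, bound by ATF and CREB factors). Letters outside these patterns were not searched.
Ifnb1, chr4:88522745-88523044, minus strand: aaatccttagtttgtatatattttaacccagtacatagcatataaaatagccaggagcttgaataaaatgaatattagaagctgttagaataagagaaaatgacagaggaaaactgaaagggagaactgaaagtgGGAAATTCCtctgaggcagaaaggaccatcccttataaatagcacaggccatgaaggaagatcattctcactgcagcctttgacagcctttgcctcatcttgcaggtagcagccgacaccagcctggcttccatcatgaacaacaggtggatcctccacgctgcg
Cxcl10, chr5:92348840-92349139, minus strand: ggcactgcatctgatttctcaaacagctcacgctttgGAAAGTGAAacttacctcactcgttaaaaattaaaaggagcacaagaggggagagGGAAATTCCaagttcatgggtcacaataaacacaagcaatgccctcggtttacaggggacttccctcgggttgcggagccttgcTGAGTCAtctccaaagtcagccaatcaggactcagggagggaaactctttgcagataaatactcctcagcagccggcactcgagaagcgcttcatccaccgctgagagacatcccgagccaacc
Il6, chr5:30012864-30013163, plus strand: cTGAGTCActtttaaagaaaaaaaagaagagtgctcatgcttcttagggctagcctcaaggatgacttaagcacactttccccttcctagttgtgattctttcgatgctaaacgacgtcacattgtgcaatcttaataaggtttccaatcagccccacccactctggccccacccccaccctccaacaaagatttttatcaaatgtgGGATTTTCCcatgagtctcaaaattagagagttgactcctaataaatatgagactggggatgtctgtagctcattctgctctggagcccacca
Ifit1, chr19:34640639-34640938, plus strand: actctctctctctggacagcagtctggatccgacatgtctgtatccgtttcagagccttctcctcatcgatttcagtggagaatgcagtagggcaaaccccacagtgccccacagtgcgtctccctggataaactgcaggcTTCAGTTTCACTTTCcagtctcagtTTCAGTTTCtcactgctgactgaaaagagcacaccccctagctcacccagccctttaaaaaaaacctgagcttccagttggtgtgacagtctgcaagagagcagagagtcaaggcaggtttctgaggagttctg
Isg15, chr4:156200769-156201068, minus strand: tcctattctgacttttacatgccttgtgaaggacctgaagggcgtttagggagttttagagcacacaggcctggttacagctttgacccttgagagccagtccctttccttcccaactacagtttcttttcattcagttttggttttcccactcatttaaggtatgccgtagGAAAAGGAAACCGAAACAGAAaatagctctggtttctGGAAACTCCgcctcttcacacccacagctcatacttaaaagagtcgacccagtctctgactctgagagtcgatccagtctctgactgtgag
Socs1, chr16:10785487-10785786, minus strand: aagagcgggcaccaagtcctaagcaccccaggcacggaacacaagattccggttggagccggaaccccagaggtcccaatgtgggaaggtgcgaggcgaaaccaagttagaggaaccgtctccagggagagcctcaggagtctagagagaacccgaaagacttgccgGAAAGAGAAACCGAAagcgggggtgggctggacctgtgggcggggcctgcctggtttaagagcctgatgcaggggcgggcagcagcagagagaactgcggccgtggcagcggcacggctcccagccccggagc
Ppp1r15a, chr7:45526219-45526518, minus strand: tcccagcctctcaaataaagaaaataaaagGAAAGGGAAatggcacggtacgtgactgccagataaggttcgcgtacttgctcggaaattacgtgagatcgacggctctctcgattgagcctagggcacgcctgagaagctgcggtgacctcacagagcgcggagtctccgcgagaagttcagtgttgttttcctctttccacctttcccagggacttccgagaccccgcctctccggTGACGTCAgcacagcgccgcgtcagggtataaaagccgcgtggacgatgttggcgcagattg
The Cxcl10 window held 3 of the 4 patterns: GAAANNGAA, the NF-kB site and the AP-1 site. The Isg15 and Ifit1 windows each held 3 GAAANNGAA matches, those of Ifit1 on the opposite strand, and the Isg15 window also an NF-kB site. The Ifnb1 window held the NF-kB site, 115 bases before the start, and no match to the other 3 patterns. GAAANNGAA fixes the spacing of its repeats, and other spacings were not searched. The missing match therefore does not show that the Ifnb1 window lacks elements for IRF factors. The Il6 window held an NF-kB and an AP-1 site. The Socs1 window held 2 GAAANNGAA matches. In the Ppp1r15a window, GAAANNGAA began 220 bases and a cAMP response element 12 bases before the start. Over all promoter windows, 8.56% held GAAANNGAA, 4.26% the NF-kB site, 7.81% the AP-1 site and 1.79% the cAMP response element. By gene, GAAANNGAA was found for 64 of the 217 genes with a window that rose by more than 1 on the log2 scale (29.5%), for 3 of 61 that fell by as much (4.92%) and for 8.43% of all tested genes. The corresponding shares were 12.9%, 6.56% and 5.46% for the NF-kB site and 17.5%, 3.28% and 6.16% for the AP-1 site. For the cAMP response element they were 2.76%, 4.92% and 3.63%.

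Interferon genes and the chemokines that recruit T cells showed the largest changes of all lists. All 6 tested members of this list of 10 rose, with a median log2 change of 5.99. The genes Ifna2, Ifna5, Ifnl2 and Ifnl3 had too few counts to be tested. With almost no untreated counts, Ifnb1, Ifna4, Cxcl9 and Cxcl11 could pass the count filter only through treated libraries. The count of 6 rises is therefore partly set by the filter. Ifnb1 (chromosome 4, 88522025 to 88522774, minus strand, GRCm38) encodes interferon-beta and was at 0 counts in all 4 untreated libraries. After poly(I:C) it reached 18.9, 50.7, 7.41 and 10.8 CPM, so that every treated library lay above every untreated one. With the untreated libraries together set to 3 counts, the upper limit that a count of 0 allows, the pooled rise was at least 231-fold (adjusted p = 8.93e-07). Ifna4, a type I interferon that in textbooks follows interferon-beta early, went from 2 counts over the untreated libraries to 307 over the treated ones, a ratio of 158 with a 95% counting interval of 43.4 to 1311. The treated lines held 45, 238, 13 and 11 of these counts, so the pooled ratio describes mostly E2.5. Reads of near-identical Ifna copies may be shared out between them.

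Cxcl10 attracts activated T cells through the receptor CXCR3. It was already at 63.2, 162, 39.4 and 52.5 CPM untreated and reached 837, 3658, 316 and 1278 CPM. The log2 change was 4.01 ± 0.29 (SE of the fit over all lines, n = 4 het lines, adjusted p = 1.06e-08). The groups did not overlap, and after treatment E2.5 was the highest line and E2.6 the lowest. Its relatives Cxcl9 and Cxcl11 rose from under 1 CPM in every line to between 2.5 and 45.9 CPM, by 5.70 ± 0.45 and 6.28 ± 0.42; the annotation calls Cxcl11 a polymorphic pseudogene. Ccl5, which attracts T cells and monocytes, rose by 2.08 ± 0.23 from 14.5 to 41.8 CPM to 29.3 to 273 CPM, with overlap because treated E2.6 (29.3 CPM) stayed below untreated E1.3 and E2.5.

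**Figure D2:**
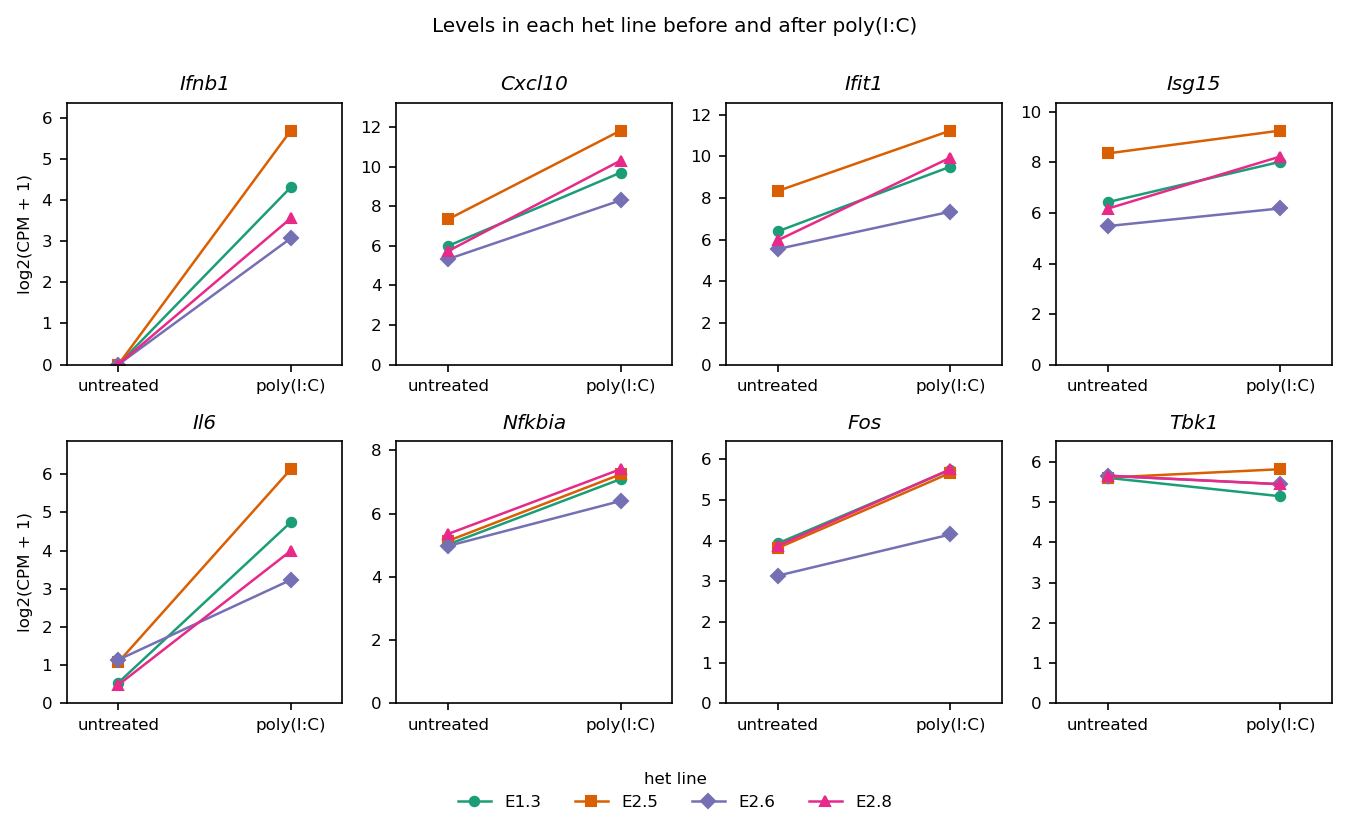
Level of 8 genes as log2(CPM + 1) in each het line, untreated and after poly(I:C), with a line joining the libraries of 1 cell line. Ifnb1 starts at 0 in all lines, Isg15 and Ifit1 rise from untreated levels that already differ, E2.6 is lowest after treatment in all panels but Tbk1, and Tbk1 moves in both directions.

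Inflammatory cytokines that depend largely on NF-kB rose as well. Of 18 tested members of a list of 24, 16 rose and none fell, with a median of 2.31; Il11 and Cxcl12 were not called. Il6, which drives the acute-phase response, went from 0.451, 1.11, 1.2 and 0.395 CPM to 25.8, 69.3, 8.39 and 14.9 CPM (4.90 ± 0.35, adjusted p = 9.38e-09). All lines rose without overlap, E2.6 least. Tnf was at 0 counts untreated in all lines and stood at 1.39 to 3.02 CPM after treatment, at least 16.8-fold higher over pooled counts. Ccl2, which attracts monocytes, rose by 3.52 ± 0.39 and reached 399, 933, 253 and 640 CPM. The neutrophil attractants Cxcl1 and Cxcl2 rose by 3.95 ± 0.37 and 5.85 ± 0.66. For these, line E2.6 did not respond least: its per-line change of Cxcl2 was the largest of the 4, at 4.84 against 3.48 to 4.58. Ccl20 behaved alike, at 5.33 in E2.6 against 4.08 to 5.19. There, however, Ccl20 started at 0 CPM and ended at 11.7 CPM, the lowest treated level of the 4 lines. Over the 18 tested members, the change with its sign kept was lowest in E2.6 for 9 and in E1.3 for 8. With the pairing by line left out, 10 of the 18 were called.

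Among the sensors of foreign nucleic acid and their adaptors, the receptors rose and the adaptors that pass the signal on were not called. Of 14 genes, all tested, 10 rose and 1 fell (median 1.17; 5 called without the pairing). RIG-I (Ddx58) was at 69.6, 258, 39.7 and 70.0 CPM untreated and 262, 615, 96.9 and 337 CPM treated, a rise of 1.70 ± 0.17. The groups overlapped because treated E2.6 lay below untreated E2.5. Ifih1 rose by 1.82 ± 0.20, Dhx58, a regulatory relative of both, by 1.5 ± 0.20, and Tlr3 by 2.38 ± 0.20. The gain of Tlr3 was 1.33 in E2.6 against 2.51 to 2.57 in the other lines. The kinase PKR (Eif2ak2), which blocks translation on binding double-stranded RNA, rose by 0.75 ± 0.12. Values for the adaptors were -0.03 ± 0.11 for Mavs, -0.17 ± 0.18 for Ticam1 and -0.03 ± 0.15 for Tmem173, which encodes STING, with adjusted p from 0.562 to 0.937. Zcchc3, a cofactor of cGAS and RIG-I-like receptors, was the member that fell, by 0.58 ± 0.15, from 14.7 to 16.2 CPM to at most 10.6 CPM, without overlap. Among all tested genes 8.81% rose and 8.97% fell, a share of falls close to 1 of 14.

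Tbk1 itself (chromosome 10, 121546455 to 121586787, minus strand, GRCm38) was not called. It stood at 47.8, 48.1, 49.5 and 49.7 CPM untreated and at 34.5, 55.7, 42.8 and 42.7 CPM treated, a log2 change of -0.16 ± 0.11 (adjusted p = 0.347). The value was higher with treatment in E2.5 and lower in the other 3 lines. These counts do not separate the 2 alleles. Of the 11 genes of the TBK1 module and the autophagy receptors it phosphorylates, 1 rose and 2 fell (median -0.001). By comparison, 8.81% of all tested genes rose and 8.97% fell. Sqstm1, which encodes the receptor p62, rose by 0.35 ± 0.10, and the receptors Tax1bp1 and Calcoco1 fell by 0.18 ± 0.06 and 0.53 ± 0.12; with the size factors of DESeq2 in edgeR, Tax1bp1 was no longer called. The relative Ikbke (0.45 ± 0.31), the scaffold Tank (0.14 ± 0.08) and the receptor Optn (0.10 ± 0.11) were not called. Called members numbered 1 without E1.3, 5 without E2.6, 0 without E2.8 and 1 without the pairing.

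Some of the transcription factor genes of the IRF and STAT families rose. Of 14 tested IRF and STAT genes (2 further members had too few counts), 7 rose and 1 fell, with a median of 1.16; only 2 were called without the pairing. Irf1 rose in every line without overlap, from 46.2, 67.8, 20.3 and 45.5 CPM to 283, 587, 99.1 and 359 CPM (2.77 ± 0.18). Irf7, the factor that amplifies interferon-alpha production, rose by 1.98 ± 0.25, but untreated E2.5 (111 CPM) exceeded treated E1.3, E2.6 and E2.8 (59.9, 15 and 93.5 CPM). Stat2 and Irf9, which encode transcription factors that act downstream of the interferon receptor, rose by 1.69 ± 0.15 and 1.24 ± 0.17. Irf3, the substrate of TBK1, had -0.22 ± 0.13 and was not called, and Stat5b fell by 0.30 ± 0.10. Among all tested genes 8.81% rose and 8.97% fell, a share of falls close to 1 of 14.

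No receptor or kinase gene of the cytokine pathways was called, and some of their feedback inhibitors rose. Of 15 members, 3 rose (8.81% of all tested genes did): Socs1, Socs3 and Usp18, all brakes on JAK signalling. The related inhibitor genes Socs2 (0.37 ± 0.17) and Cish (0.91 ± 0.34) were not called. Ifnar1 had -0.14 ± 0.08, Jak1 0.23 ± 0.08 and Tyk2 -0.33 ± 0.12, with adjusted p of 0.284, 0.0587 and 0.0685. Socs1 went from 1.35, 2.40, 1.92 and 1.71 CPM to 14.8, 35.9, 2.96 and 13.8 CPM (2.94 ± 0.43). The groups did not overlap, but the change in E2.6 was 0.55 against 2.81 to 3.74 elsewhere. Usp18 rose by 2.12 ± 0.25 with overlap, from 189 CPM in untreated E2.5 and 7.57 to 23.9 CPM in the others. DESeq2 and the fit on the het libraries alone each called 5 of this list, and the fit without pairing 1.

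NF-kB subunits and the genes that shut NF-kB off rose in most cases, with list medians of 0.41 to 0.77 in the 4 lines. Of 23 tested members of 24, 14 rose and 2 fell (median 0.53; 7 called without the pairing), and 9 of those called did not overlap between groups (5.27% of all genes lay higher and 6.48% lower without overlap). Tnfaip3 encodes A20, a ubiquitin-editing inhibitor of NF-kB. Its level was 36.8, 46.8, 29.9 and 17.4 CPM untreated and 200, 344, 202 and 198 CPM treated (2.88 ± 0.26, adjusted p = 1.86e-07), so 3 of the 4 lines ended within 198 to 202 CPM. The inhibitor gene Nfkbia rose by 1.93 ± 0.21, with 1.44 in E2.6 and 2.07 to 2.13 in the other lines. Nfkb2 and Relb, the subunits of the non-canonical pathway, rose by 0.77 ± 0.14 and 1.31 ± 0.21. The members that fell were Chuk (0.29 ± 0.08), which encodes IKK-alpha, and Ikbkg (0.27 ± 0.09), which encodes the regulatory subunit NEMO. Among all tested genes 8.81% rose and 8.97% fell, a share of falls close to 2 of 23.

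Interferon-stimulated effectors rose almost throughout. All 6 Ifit genes rose (median 3.60), as did 37 of 41 tested genes of a list of other antiviral effectors (median 1.69), all 14 tested guanylate-binding proteins and immunity-related GTPases (median 2.82), 4 of 5 genes of the ISG15 system (median 1.32) and 6 of 7 antiviral PARP genes and Dtx3l (median 1.37); none fell. Usp18 counts both here and among the JAK inhibitors, and Zc3hav1 both here and among the sensors. Ifit1, which binds viral RNA that lacks a methylated cap, went from 83.5, 323, 45.9 and 61.8 CPM to 726, 2414, 162 and 982 CPM (3.02 ± 0.29). Rsad2, which encodes the enzyme viperin, rose by 4.29 ± 0.23, from 5.40 to 113 CPM to 108 to 2021 CPM. Mx2 and Mx1, dynamin-like GTPases, rose by 4.67 ± 0.24 and 4.39 ± 0.33; the annotation calls Mx2 a polymorphic pseudogene, and inbred strains differ in both. Gbp5, a GTPase of inflammasome defence, rose by 5.49 ± 0.28 without overlap, from at most 4.07 CPM to 18.3 to 141 CPM. Parp14 rose by 3.33 ± 0.24 and its neighbour Dtx3l, which overlaps Parp9 on the opposite strand, by 2.46 ± 0.22. Bst2 (tetherin, 0.23 ± 0.16) and Apobec3 (0.67 ± 0.26) were not called. Reads of Ifit3 and Ifit3b, and of Tgtp1 and Tgtp2, may be split between near-identical copies.

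The lines differed widely in these effectors before treatment. Isg15, a ubiquitin-like protein attached to newly made proteins, was at 85.3, 328, 43.7 and 71.2 CPM untreated and 260, 613, 71.6 and 300 CPM treated (1.36 ± 0.19, adjusted p = 5.27e-05). Untreated E2.5 thus lay above the treated libraries of the other 3 lines. The median range between untreated lines was 3.10 on the log2 scale over the 41 other antiviral effectors and 3.63 over the 14 GTPases, against 0.49 over all genes. Line E2.5 was the highest untreated line for 38 of the 41 and 14 of the 14, and E2.6 the lowest for 28 and 9. The groups did not overlap for 2 of the 37 antiviral effectors that rose and for 2 of the 14 GTPases, where 5.27% of all genes lay higher in every treated library. Without the pairing by line, 12 of the 41 and 7 of the 14 were called, 0 of the ISG15 system and 3 of the PARP list. With its sign kept, the change was lowest in E2.6 for 29 of the 41 antiviral effectors. The share over all genes was 32.1%, which includes genes that fell most in E2.6. Epithelial markers were also highest in E2.5, at 111 CPM untreated and 104 CPM treated against at most 42.5 CPM; the part of these markers in its untreated levels was not tested. In bulk samples, fewer responding cells and less RNA per cell cannot be told apart.

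**Figure D3:**
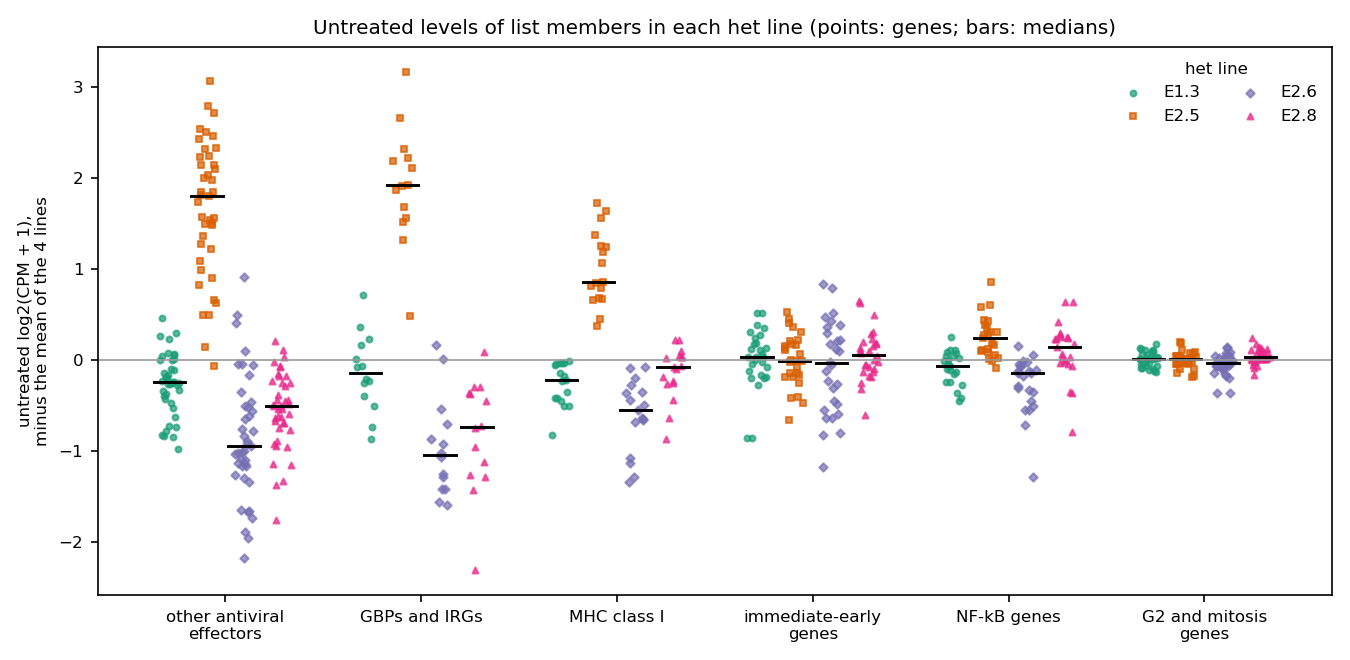
Untreated level of each tested member of 6 gene lists as log2(CPM + 1) minus the mean of the 4 het lines, with 1 point per gene and bars at the medians. Interferon-stimulated lists are high in E2.5 and low in E2.6, while the medians of the immediate-early, NF-kB and mitosis lists lie closer to 0, with a median range between lines of 0.81 for immediate-early and 0.63 for NF-kB genes.

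Antigen presentation on MHC class I rose more modestly, and the number of genes called changed with the lines kept. Of 17 members, 12 rose and none fell (median 0.72), but only 7 were called without E2.5 or without E2.8, 14 without E2.6, and 0 without the pairing. Tap1, a subunit of the peptide transporter, stood at 7.22, 47.1, 8.29 and 11.1 CPM untreated and 38.0, 193, 14 and 54.6 CPM treated (1.95 ± 0.24). The immunoproteasome subunit Psmb9, which overlaps Tap1 on the opposite strand, rose by 1.71 ± 0.25 and the peptide editor Tapbp by 1.10 ± 0.17. B2m, the light chain of every class I molecule, rose by 0.47 ± 0.10. All groups of called members overlapped, and in E2.6 the median change of the list was 0.06 against 0.47 to 1.05 in the other lines. H2-K1 rose over the 4 lines by 0.55 ± 0.16, while in E2.6 it was at 44.5 CPM untreated and 40.7 CPM treated. Untreated levels were highest in E2.5 for 17 of the 17.

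Of 19 tested genes of cell death (21 listed), 7 rose and 1 fell (median 0.23), where 8.81% of all tested genes rose and 8.97% fell. Called members numbered 5 without E1.3, 4 without either E2.5 or E2.8, and 1 without the pairing. Casp4, a sensor of cytosolic lipopolysaccharide, rose by 1.90 ± 0.32, and Mlkl, the executor of necroptosis, by 0.98 ± 0.16. Tnfsf10, which encodes the death ligand TRAIL, rose by 4.67 ± 0.48 from at most 1.48 CPM to 1.32 to 29.2 CPM. Bmf, a BH3-only death gene, fell by 1.4 ± 0.38. Casp8, Ripk1 and Ripk3 were not called.

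Immediate-early genes, which respond to many stimuli without new protein synthesis, were raised at 4 h, the only time sampled after poly(I:C). Of 28 members, 23 rose and none fell (median 1.14), 17 were called without the pairing, and in 18 of the 23 the groups did not overlap (5.27% of all genes lay higher without overlap). Fos went from 14.3, 13.1, 7.81 and 13.7 CPM to 52.6, 49.9, 16.8 and 53.1 CPM (1.75 ± 0.19, adjusted p = 1.88e-06). Treated E1.3, E2.5 and E2.8 lay close together and E2.6 below them, with no overlap between groups. Egr1 rose by 2.67 ± 0.21 to 1032, 949, 520 and 892 CPM. Zfp36, whose product destabilises cytokine mRNAs, rose by 1.88 ± 0.14 and Atf3, a repressor of cytokine genes, by 2.69 ± 0.21. The median range between untreated lines was 0.81 for this list, against 3.10 for the antiviral effectors.

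Feedback genes of the MAP kinases, which act on the pathways that drive immediate-early genes, rose in 6 and fell in 2 of 15 cases (median 0.35). Over all tested genes, the shares were 8.81% higher and 8.97% lower. Called members numbered 5 without E1.3, 3 without E2.5, 4 without E2.8 and 0 without the pairing. The phosphatase gene Dusp5 rose by 0.90 ± 0.14 and the inhibitor gene Spry2 by 0.74 ± 0.15, whereas Dusp7 fell by 0.50 ± 0.11. Among 10 Id, inhibitory SMAD and Notch target genes, Hes1 (0.72 ± 0.11) and Bambi (1.0 ± 0.23) rose and Smad7 fell by 0.37 ± 0.09. Called members of that list numbered 6 without E1.3, 1 without E2.5 and 1 without the pairing, and its median change was 0.36 in E1.3 against -0.35 to -0.30 in the other lines.

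Several nuclear long non-coding RNAs fell by more than 1 on the log2 scale. Of 15 tested members of a long non-coding RNA list of 18, 8 fell and 1 rose (median -0.75), and 8 were called without the pairing. Among all tested genes 8.97% fell and 8.81% rose. The imprinted RNA Meg3 had the largest fitted fall among genes with a mean level of at least 1 log2 CPM: from 48.7, 52.7, 77.2 and 50.4 CPM to 14.1, 10.8, 26.7 and 12.5 CPM (-1.89 ± 0.13, adjusted p = 3.31e-09). Malat1, a component of nuclear speckles, was at 184, 205, 379 and 208 CPM untreated and 53.7, 65.8, 126 and 65.2 CPM treated (-1.66 ± 0.24). Its changes in the 4 lines lay between -1.77 and -1.59. Neat1, the scaffold of paraspeckles, went from 145 to 189 CPM to 59.5 to 71.6 CPM (-1.44 ± 0.19). In all 3 cases the groups did not overlap.

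The next largest falls included transcripts whose annotated span holds microRNA genes. Mir17hg, which holds Mir17, Mir18, Mir19a, Mir20a, Mir19b-1 and Mir92-1, changed by -1.80 ± 0.21, Dnm3os, which holds Mir199a-2 and Mir214, by -1.53 ± 0.17, and Firre, an X-linked nuclear RNA, by -1.72 ± 0.20. Spaca6, a sperm protein gene whose span holds Mir99b, Mirlet7e and Mir125a, changed by -1.76 ± 0.16. Pvt1, the non-coding neighbour of Myc, was the list member that rose, by 0.69 ± 0.12. E2.6 did not respond least here: its list median was -1.02 against -0.72 to -0.44 in the other lines, although its changes of Firre (-0.84) and Neat1 (-1.02) were the smallest. Of 13 tested small nucleolar RNA host genes, 4 rose and 1 fell (median 0.42), against 8.81% and 8.97% of all tested genes. Snhg12 rose by 0.90 ± 0.19, and Snhg20 fell by 1.02 ± 0.26. Called members of that list numbered 2 without either E1.3 or E2.5, 3 without E2.8 and 2 without the pairing.

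**Figure D4:**
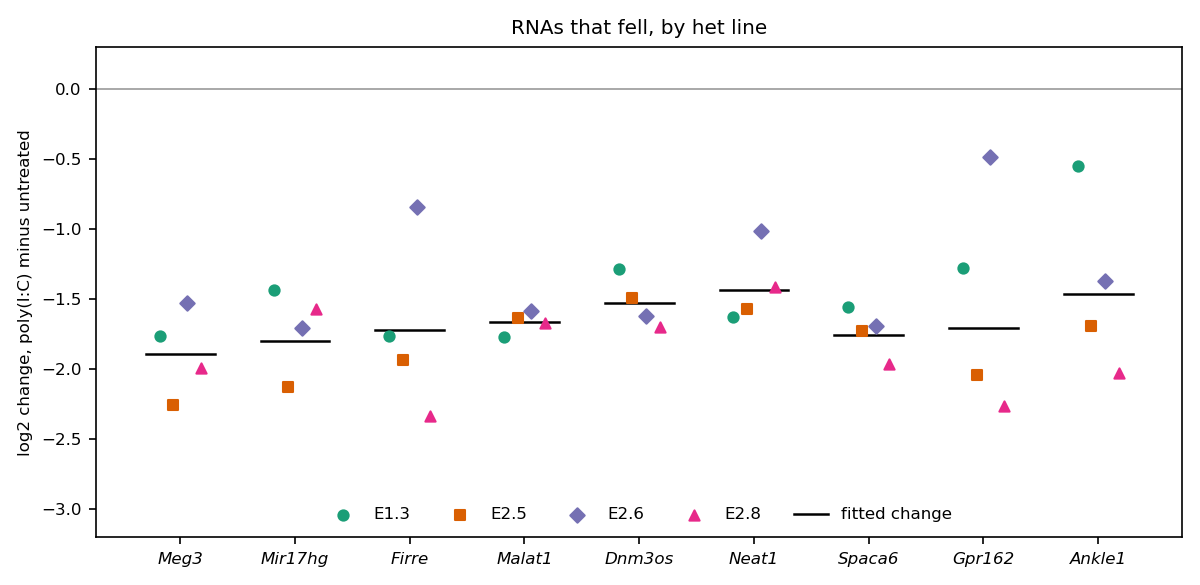
Log2 change of 9 RNAs that fell in the het lines, with 1 symbol per line and a bar at the fitted change. Malat1 and Spaca6 lie close together across lines, whereas Firre, Gpr162 and Ankle1 range widely, with E2.6 or E1.3 nearest to 0.

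Many genes of cholesterol metabolism rose by small amounts. Of 24 cholesterol synthesis and uptake genes, 15 rose and none fell (median 0.41), where 8.81% of all tested genes rose and 8.97% fell. Called members numbered 5 without E1.3, 6 without E2.8, 18 without E2.6 and 0 without the pairing. Insig1, a sensor that holds back sterol synthesis, was at 186, 182, 56.1 and 176 CPM untreated and 507, 314, 51.8 and 361 CPM treated (0.80 ± 0.18). E2.6 lay lowest before treatment, as it did for 23 of the 24 genes, and its list median was 0.03 against 0.38 to 0.60. Lss and Cyp51, enzymes of the late pathway, rose by 0.63 ± 0.12 and 0.56 ± 0.10, and Hmgcs1 near its start by 0.52 ± 0.13.

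Among 26 genes of the integrated stress response, which is driven by the factor ATF4, 2 rose and 1 fell (median 0.11). The background for this and the following lists was 8.81% of all tested genes higher and 8.97% lower. Called members numbered 8 without E2.6, 1 without E2.8, 1 without the pairing, 8 in the fit of the het libraries alone and 5 by DESeq2. Ppp1r15a encodes GADD34, which brings a phosphatase to the translation factor eIF2 and so ends the response. It went from 73.1, 73.6, 42.6 and 70.0 CPM to 176, 224, 90.0 and 123 CPM (1.21 ± 0.13, adjusted p = 2.23e-06), without overlap. The amino acid transporter gene Slc3a2 rose by 0.36 ± 0.09, and the lipoprotein receptor gene Vldlr fell by 0.74 ± 0.24. The other 23 members were not called, among them Atf4 itself (0.04 ± 0.13), Ddit3 (-0.46 ± 0.22) and Trib3 (-0.03 ± 0.40). Txnip, a glucose-regulated arrestin, rose by 1.23 ± 0.17, one of 4 rises and 4 falls among 15 arrestin-domain and FOXO target genes (5 called without E1.3 or E2.5, 4 without the pairing). Klhl24 fell by 1.3 ± 0.23 in the same list. Of 16 p53 target genes, 2 rose and 3 fell; Cdkn1a rose by 0.57 ± 0.12, with 0.23 in E2.6 against 0.68 to 0.74. That list had 3 called members without E2.5 or E2.8 and 0 without the pairing.

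Most growth and structural genes were not called, and fewer were called in most fits without E1.3, E2.5 or E2.8. The count over all genes fell as well, from 2376 to 1169 without E1.3, 1238 without E2.5 and 1031 without E2.8. Over all tested genes, 8.81% rose and 8.97% fell. Of 30 G2 and mitosis genes, 9 fell and none rose (median -0.14), and 0 were called without E1.3, without E2.5 or without E2.8. All 9 moved the same way in all 4 lines. Cenpf, a kinetochore protein gene, changed by -0.60 ± 0.15, with -0.04 in E2.6 against -0.93 to -0.63. The mitotic kinases Ttk and Bub1b changed by -0.37 ± 0.10 and -0.34 ± 0.09 without overlap between groups. S-phase genes split into 5 rises and 3 falls of 30, ribosome biogenesis genes into 5 rises of 22, YAP and SRF targets into 2 rises and 1 fall of 18, and matrix genes into 8 rises and 1 fall of 31. The helicase subunit Mcm6 rose by 0.34 ± 0.07, the nucleolar protein gene Nop58 by 0.27 ± 0.07, the YAP target Amotl2 by 0.69 ± 0.11 and the matrix protease gene Mmp3 by 1.31 ± 0.31. Without E2.8, the 4 lists had 4, 1, 1 and 0 called members. Without E1.3 they had 5, 3, 3 and 2, without E2.5 4, 3, 2 and 1, and without the pairing 0, 0, 1 and 0.

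Among called genes with a mean of at least 1 log2 CPM and 1 direction in all lines, the 10 largest rises were those of Ifnb1, Cxcl11, Cxcl9, Gbp5, Ccl20, Il6, Neurl3, Mx2, Ifit1bl1 and Mx1. Neurl3, a ubiquitin ligase gene outside the lists, rose by 4.79 ± 0.32, from 2.41, 3.33, 1.32 and 0.658 CPM to 49.8, 119, 11.5 and 50.6 CPM, without overlap. At the same mean level, the per-line changes of called genes ranged most for Hist1h2bc, Gm20634, Socs1, Ifi47, Tgtp2, Gm4951, Ifit1bl1 and Cxcl9. E2.6 had the smallest change in 7 of these 8, the exception being Cxcl9, for which E1.3 (2.64) lay just below E2.6 (2.74) and E2.5 reached 5.76. Ifi47, an immunity-related GTPase, ranged from 1.58 in E2.6 to 4.72 in E2.8, and Ifit1bl1 from 2.11 in E2.6 to 5.67 in E2.5. Just inside the threshold lay Acsl1, Fam206a and Gpr39 with log2 changes of 0.38, 0.39 and 0.58. Just outside lay Ccdc50, Gskip and Scd2 with -0.35, -0.24 and 0.34.

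The response of the het lines was set against that of lines with no mutant allele. No gene was called for the difference from WT (0%), and 251 (1.88%) had an unadjusted p under 0.05. DESeq2 called 1, Gm10233, with an estimate of -46.33 on the log2 scale, too extreme to be read as a size of change. Without the filter on low counts, edgeR called 22. The WT lines themselves had 1006 genes higher (7.53%) and 1094 lower (8.19%). Interferons and antiviral chemokines, Ifit genes and other antiviral effectors rose in 6 of 6, 6 of 6 and 36 of 41 cases in WT, and in 6, 6 and 37 in het. Ifnb1 after poly(I:C) was at 22.7, 9.33 and 23.6 CPM in the WT lines, within the range of the het lines, and Il6 at 25.7, 12 and 23.8 CPM. For Cxcl10 the difference between the 2 responses was 0.25, for Ifit1 0.06 and for Isg15 -0.04 on the log2 scale. A p that misses the threshold does not show that the responses are alike: the SE of the difference was 0.40 for Cxcl10 and 0.41 for Ifit1.

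Against lines with 2 mutant alleles, 1 gene passed, Ppp1r15a (chromosome 7, 45522916 to 45526268, minus strand), or 0.00748%; 485 genes or 3.63% had an unadjusted p under 0.05. Poly(I:C) moved it by 1.21 in het and 0.98 in WT and left it at -0.25 ± 0.15 in hom, a difference from hom of 1.46 ± 0.20 (adjusted p = 0.00772). In the hom lines it stood at 76.4, 55.8 and 70.9 CPM untreated and 65.9, 46.4 and 58.6 CPM treated, lower in all 3, while it was higher in all 4 het and all 3 WT lines. The call was lost when hom line E1.4 (adjusted p = 0.0551), E2.2 (0.0744) or E2.9 (0.0661) was left out, in the fit of both genotypes alone (0.0785) and without the pairing (1), with a difference of 1.43 to 1.49 in each. It held without each het line. Tulp2, which overlaps it on the opposite strand, had too few counts to be tested.

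Other genes came near the threshold of that difference. Il6 differed by 3.66 ± 0.66 (adjusted p = 0.056), having reached 4.17, 1.45 and 2.31 CPM in the hom lines. Without line E2.6 its difference was 4.46 (adjusted p = 0.00338), and 13 genes then passed, all higher in het, among them Tlr3, Cd274, Tlr2, Pml and Tor3a. DESeq2 called 20, of which 19 were higher in het. The other was Gm10233, again with an estimate (-52.19) too extreme to be read as a size of change. Without the filter, edgeR called 119. The calls of DESeq2 included Il6, Cd274 and Tlr3 again, and also Ifit2, Zfp36 and Atf3. Ifnb1 had 0.26, 0 and 0.53 CPM in treated hom lines, below each of the het lines, but untreated levels of 0 in every line left the fitted difference without a usable error. The responses of Cxcl10, Ifit1 and Isg15 differed by 0.22, -0.59 and -0.41 and were not called. Their levels lay apart all the same: untreated Isg15 was at 4.68, 9.54 and 7.18 CPM in the hom lines against 43.7 to 328 CPM in the het lines, and treated Isg15 at 10.5, 35.1 and 31.2 CPM against 71.6 to 613 CPM. Ifit1 after treatment reached 14.2, 34.3 and 47.0 CPM in hom, against 45.9 to 323 CPM in the untreated het lines, and Cxcl10 reached 55.5, 131 and 216 CPM, below every treated het line. These differences in level were not tested. In hom, 1309 genes were called (9.79%), of which 763 rose (5.71%) and 546 fell (4.09%). Of the interferons and antiviral chemokines 4 of 6 rose, of the other antiviral effectors 17 of 41, of the MHC class I genes 2 of 17 and of the NF-kB genes 13 of 23, and 8 of 15 long non-coding RNAs fell; the list counts themselves were not compared by a test.

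**Figure D5:**
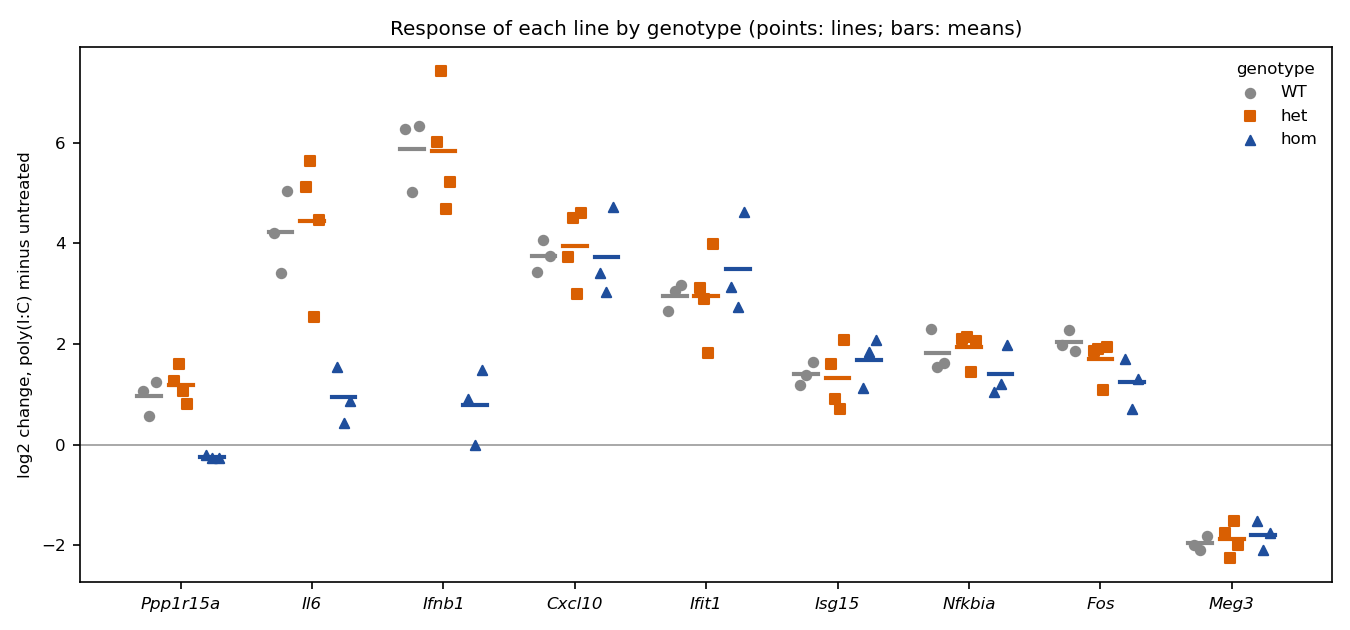
Log2 change (poly(I:C) minus untreated) of 9 genes in each line of the 3 genotypes, with points for lines and bars for means. Het and WT points overlap for every gene, hom points lie below all het points for Ppp1r15a, Il6 and Ifnb1, and all 3 genotypes overlap for Cxcl10, Ifit1 and Isg15.

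The same het lines under antimycin and oligomycin share their untreated libraries with the comparison above, so the values are given side by side only. There, 1723 genes were higher (12.9%) and 1948 lower (14.6%). Of the 41 other antiviral effectors, 0 rose and 6 fell under the inhibitors, and of the 28 immediate-early genes 15 rose. All but 1 of 26 integrated stress response genes rose, with a median of 1.15 against 0.11 after poly(I:C). Ppp1r15a rose under both, by 2.35 and 1.21, and Neat1 changed by -1.66 and -1.44. Txnip moved in opposite directions, at -2.33 under the inhibitors and 1.23 after poly(I:C). Tbk1 rose by 0.46 under the inhibitors and had -0.16 after poly(I:C), and Sqstm1 rose by 1.38 and 0.35. Meg3 changed by -0.43 and -1.89, and Malat1 had -0.24, not called, and -1.66.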

How the data were processed

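RNA-seq libraries were made with a stranded TruSeq kit, per the labels' protocols. The authors deposited RSEM expected counts per Ensembl gene, from STAR alignments to mm10, per the submitters' processing notes; the sources used here do not state versions, annotation release or strand setting. Of 49585 gene IDs, 49326 matched GENCODE vM21 (GRCm38), which supplied symbols and coordinates. Reads of near-identical copies (Ifit3 and Ifit3b, Tgtp1 and Tgtp2, Ifna genes, histones) and of overlapping genes may be divided between them. The 6 libraries of a density experiment were not used.

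Expected counts were rounded, and genes were filtered with edgeR's filterByExpr (minimum count 10, minimum total count 15). Genes with almost no untreated counts could pass this filter only through treated libraries, so counts of their rises are partly set by it. Over 30 libraries of 10 lines, edgeR 4.0.16 (R 4.3.3) fitted a quasi-likelihood model with TMM scaling, the line as a block and a coefficient per treatment within genotype. Responses and differences between responses were called at a Benjamini-Hochberg adjusted p under 0.05 over all tested genes. Standard errors are on the log2 scale, from the fitted change and its F statistic, and gene levels are CPM on TMM-scaled libraries, while marker sums use the plain library totals. Changes of single lines are differences of log2 CPM with a prior count of 2, which shrinks those of low genes. Floors and intervals cover counting error only.

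The pairing rests on the titles, which name the same line under each treatment: deviations from group means correlated at 0.59 to 0.73 within the 4 lines and at -0.40 to -0.12 between lines. Libraries of 1 group differed from each other by a chi-square of 12.7 to 44.0 per degree of freedom, far above sampling noise. Alternatives were no block, DESeq2's size factors, no filter, DESeq2 1.42.0, the compared groups alone, and leaving out each line.

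The members and lists were chosen with earlier results of these data known. Genes are named as the 10 largest rises and falls with a mean of at least 1 log2 CPM and 1 direction in all lines, the 3 smallest p-values per list, a fixed set (Tbk1, Ifnb1, Il6 and others), members whose role is described, the 8 largest ranges between lines at that mean, genes called for a difference, and the 3 genes on each side of the threshold.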

Additional observations from a re-analysis of the deposited data

Results flagged for a closer look

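Among 4 lines, a value was singled out where its gap to the nearest other line took up most of the range of the group (Dixon's test at 95%, which chance passes in about 1 in 20 groups). Of 159 sets of 4 values, 13 passed, 9 of them on line E2.6, 3 on E2.8, 1 on E1.3 and 0 on E2.5. Line E2.6 had a smaller log2 change than the others in Fos (1.076 against 1.858 to 1.933), Nfkbia (1.443 against 2.067 to 2.128), Tlr3 (1.331 against 2.507 to 2.574), Cdkn1a (0.2309 against 0.6785 to 0.737) and Gpr39 (0.0919 against 0.617 to 0.723). Its Dusp7 changed further, by -0.7284 against -0.4308 to -0.3797. The median of the fibroblast matrix list was -0.05789 in E2.6 against 0.241 to 0.293. Its macrophage markers summed to 62.35 CPM untreated (5.511 to 12.14 in the other lines) and 56.4 CPM treated (10.29 to 12.25); their part in its changes was not tested.

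Line E2.8 had the larger change in Mx1 (5.432 against 3.705 to 3.989) and Parp14 (4.223 against 2.917 to 3.054). Its untreated skeletal muscle markers summed to 9.07 CPM against 0.7641 to 1.926 CPM. Pax7 alone made up 7.256 CPM of the sum in E2.8. Line E1.3 stood apart in the median of the Id, inhibitory SMAD and Hes1 list, at 0.3613 against -0.3492 to -0.2974. Between genotypes, the response of Ppp1r15a in het exceeded that in hom by 1.456 on the log2 scale by the test of the difference itself.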

How the results depend on the processing

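Without the replicate block, that is with the libraries not paired by line, 624 genes were called for the het response against 2376 with it, all 624 shared with those, and 0 for the difference from hom. DESeq2's size factors (2360), no filter on low counts (2325), DESeq2 (2331) and the het libraries alone (2732) kept the count of the het response within 1.5 times. Leaving out 1 het line gave 1031 (without E2.8) to 2413 (without E2.6). For the difference from WT, 22 genes were called without the filter, 1 by DESeq2 and 0 under each other alternative. For the difference from hom, 119 were called without the filter, 20 by DESeq2, 0 in the fit of both genotypes alone, and 0 to 13 with 1 line left out: 0 without any 1 of the hom lines and 13 without het line E2.6. The causes of these shifts were not tested. Among the 113 named genes, no called het response changed sign under any alternative run. The other called genes were not checked for sign. Of 113 named genes, 48 lost their call without the replicate block, and 13 without E1.3, 18 without E2.5, 2 without E2.6 and 21 without E2.8. Precision is limited by 4 lines and, for genes at a few CPM, by libraries of 5234667 to 9355752 counts.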

Other observations

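These values were chosen after they were seen. Replication-dependent histone genes, whose mRNAs normally lack a poly(A) tail, are in none of the lists: of 17 tested symbols from Hist1 to Hist4, 13 rose and 0 fell in the het lines (background 8.81% higher), with a median log2 change of 2.36, and medians of 3.24 in E1.3, 1.74 in E2.5, 0.92 in E2.6 and 2.29 in E2.8. The median was 2.58 in WT and 2.04 in hom lines, and -0.25 in het lines under antimycin and oligomycin. The lowest untreated mean among the 17 was 0.033 CPM. Members that low could pass the count filter only through treated libraries, so the share that rose is partly set by the filter. Reads of these near-identical genes may be divided between copies. Trim17, a ubiquitin ligase gene, rose by 4.77 ± 0.72, from 0, 0, 0.480 and 0.395 CPM to 19.1, 6.39, 1.48 and 6.61 CPM, and overlaps Hist3h2a on the same strand, which rose by 2.36.

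By gene type, 21 of 170 lincRNAs and 14 of 117 antisense transcripts fell (8.97% of all genes), and 10 and 2 rose (8.81% of all genes). Of 207 processed pseudogenes, 8 rose and 0 fell. Outside the lists, Cd274, which encodes the T-cell inhibitory ligand PD-L1, rose by 3.89 ± 0.24, from 2.56, 12.8, 2.52 and 1.32 CPM to 30.8, 238, 19.6 and 35.7 CPM. The adhesion receptor gene Icam1 rose by 3.43 ± 0.36, from 1.35 to 7.58 CPM to 22.9 to 87.4 CPM.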
